A study of Mus musculus with 8 samples.

Results

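Cardiac fibroblasts are the stromal cells that lay down and maintain the connective tissue of the heart. In development many of them descend from the epicardium, a step that needs the transcription factor Tcf21. After an infarct, resident fibroblasts divide, take on an activated state and then become matrix-secreting myofibroblasts, so markers of identity and markers of activation can move apart. The genes described here were 10 such markers: Tcf21, Thy1, Ddr2, Vim, Dpt and Islr, known for fibroblast or mesenchymal identity, and Fap, Meox1, Pdpn and Dpep1, known from activated or specialised fibroblasts. They were found by gene symbol, as probes to which the platform annotation gave a single symbol. They were 10 of 13661 genes named on the array and had 12 of its 33600 probes, 3 of them for Ddr2 and 1 for each of the others.

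The mice were C57Bl/6, 8 to 10 weeks old, and RNA of the entire heart was measured. The infarcted group was 4 mice with a lasting ligature on the left coronary artery, on its descending branch. The sham control group was 4 mice that underwent the operation without the knot. Per the labels, RNA of 1 heart (red dye) and of a mixed adult tissue reference (green dye) shared a slide spotted with 70-mer oligonucleotides. The labels do not say how long after ligation the hearts were taken. The values are log2 signals of a single channel relative to the median spot of the same print block, so 0 is the median spot and 1 unit is a doubling of the signal. The heart channel is assumed, because the files do not name it. Levels of different probes are not comparable as transcript amounts. In whole-heart RNA, fewer fibroblasts and less RNA per fibroblast cannot be told apart.

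None of the fibroblast markers passed the test of infarcted against sham control hearts. Of the 12 probes, 10 had a value on at least 3 arrays of each group and were tested, and 0 had a limma Benjamini-Hochberg adjusted p under 0.05. Over all 20561 tested probes, 157 did (0.764%), 13 of them higher and 144 lower. Without adjustment 2 of the 10 marker probes had a limma p under 0.05, Dpep1 and Pdpn, both higher in infarcted hearts, where 12.5% of all tested probes had such a p and 3.67% had one with a higher signal. The change was positive for 6 marker probes and negative for 4. Among all tested probes 43.1% were positive.

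**Figure D1:**
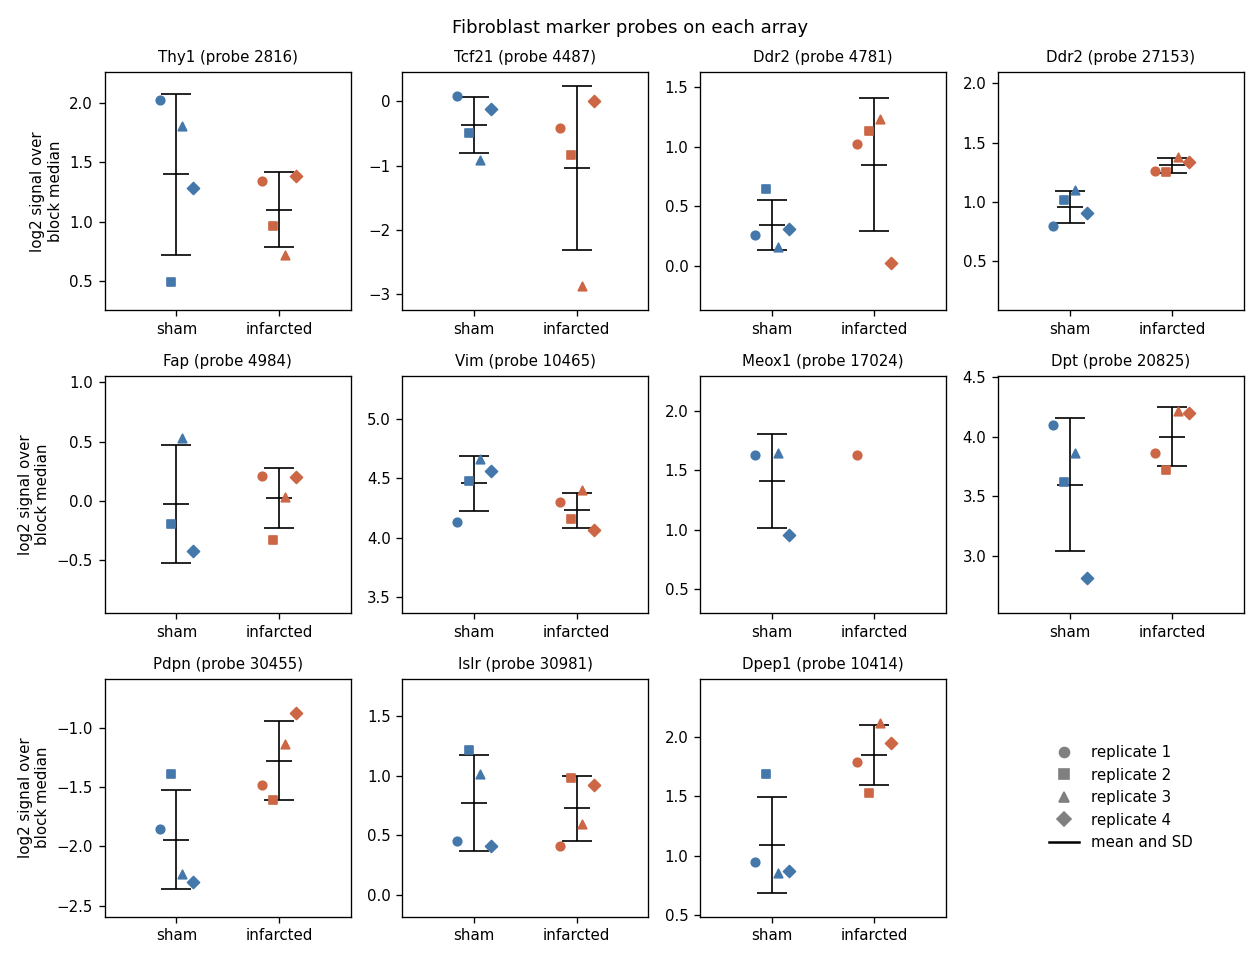
Log2 signal relative to the block median (vertical axes) for each fibroblast marker probe with any value, in sham control (blue) and infarcted (orange) hearts. Marker shapes stand for replicates 1 to 4 within a group, and black bars for the mean and SD. Each panel has its own range. The groups are apart for Ddr2 probe 27153 and overlap for every other tested probe.

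Ddr2, Dpt, Pdpn and Dpep1 were the markers whose change was positive under every alternative processing tried, some of which could not move it. The 250 bases before their transcription starts are therefore shown here (RefSeq, GRCm38.p6, strand of the gene). They lie at chr1:170088945-170089194 (minus strand) for Ddr2, chr1:164796413-164796662 (plus strand) for Dpt, chr4:143299565-143299814 (minus strand) for Pdpn and chr8:123185985-123186234 (plus strand) for Dpep1. Capitals mark every match, on either strand, to 7 motifs. They were the TATA box as TATAAA, the E-box of helix-loop-helix factors such as Tcf21 as CANNTG, and the GC box as GGGCGG. The others were AP-1 as TGANTCA, the CCAAT box, a Smad-type element as CAGACA and a TEAD-type element as GGAATG.
Ddr2: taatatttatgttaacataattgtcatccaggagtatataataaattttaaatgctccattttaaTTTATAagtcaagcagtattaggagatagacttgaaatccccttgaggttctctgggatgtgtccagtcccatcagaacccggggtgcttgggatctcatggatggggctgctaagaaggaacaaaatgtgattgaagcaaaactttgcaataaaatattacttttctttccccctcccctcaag
Dpt: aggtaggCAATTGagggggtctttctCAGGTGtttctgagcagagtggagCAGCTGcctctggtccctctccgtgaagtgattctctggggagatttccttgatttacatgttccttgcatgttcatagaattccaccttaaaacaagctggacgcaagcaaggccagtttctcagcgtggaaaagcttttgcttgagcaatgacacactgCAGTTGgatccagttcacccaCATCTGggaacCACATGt
Pdpn: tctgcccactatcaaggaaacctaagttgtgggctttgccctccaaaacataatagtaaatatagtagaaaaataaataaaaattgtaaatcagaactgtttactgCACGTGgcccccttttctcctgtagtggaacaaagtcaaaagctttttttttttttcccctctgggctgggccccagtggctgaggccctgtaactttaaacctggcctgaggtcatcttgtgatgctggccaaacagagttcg
Dpep1: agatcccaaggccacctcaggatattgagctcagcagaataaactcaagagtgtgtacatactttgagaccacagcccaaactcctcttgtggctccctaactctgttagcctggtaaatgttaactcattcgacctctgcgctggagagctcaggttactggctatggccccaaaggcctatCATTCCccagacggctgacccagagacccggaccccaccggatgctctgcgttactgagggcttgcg
Dpt held 6 E-boxes and Pdpn 1, and 66.2% of 32851 windows of this length hold 1 or more. The share of windows with as many as 6 was not counted. Ddr2 held 1 match to the TATA box letters, on the opposite strand and beginning 185 bases before the start, and 12.4% of windows hold 1 or more. Dpep1 held 1 TEAD-type match, also on the opposite strand, 67 bases before the start, and 12.6% of windows hold 1 or more. No match to the GC box (32.7% of windows), AP-1 (6.75%), CCAAT (33.8%) or Smad-type (17.1%) letters lay in these 4 windows, and no matches overlapped. The letters are a description of the windows and are not shown to be bound.

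Dpep1 encodes a membrane-bound dipeptidase that cleaves leukotriene D4 and is also abundant in the kidney. Its probe read 0.95, 1.69, 0.86 and 0.87 on sham control arrays 1 to 4, and 1.79, 1.53, 2.12 and 1.95 on infarcted arrays 1 to 4. Of the infarcted arrays 3 lay above every sham array, and sham control 2 alone reached into their range. The mean went from 1.10 ± 0.40 to 1.85 ± 0.25 (SD, n = 4 each), a log2 change of 0.75 ± 0.26 (SE) or 1.68-fold, with a 95% interval of 0.17 to 1.33. The limma p of 0.0165 was the smallest among the markers and did not pass (adjusted p = 0.26). An exact two-sided permutation test over the 8 arrays gave p = 0.0571, where the smallest p that 4 against 4 arrays can give is 0.0286. Without sham control replicate 2 the change was 0.95 (adjusted p = 0.115).

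Pdpn encodes podoplanin, a mucin-type surface glycoprotein found on activated fibroblasts and also on lymphatic endothelium and mesothelium. Its probe was dim, below the block median on every array, with recovered scanner signals from 110 to 347. It read -1.85, -1.39, -2.23 and -2.30 on the sham control arrays and -1.48, -1.61, -1.14 and -0.88 on the infarcted arrays, in replicate order. Infarcted 3 and 4 lay above all sham arrays, and infarcted 1 and 2 fell within the sham range. The mean level was -1.94 ± 0.42 in sham and -1.28 ± 0.33 in infarcted hearts (SD, n = 4 each). The log2 change of 0.66 ± 0.28 (SE; 95% interval 0.05 to 1.28) did not pass (limma p = 0.038, adjusted p = 0.358; exact permutation p = 0.0857). Markers of the other cells that carry podoplanin were set beside it. The mean over the 7 of 11 lymphatic endothelial probes with a value on all 8 arrays ran from -0.95 to -0.22 on sham and from -0.69 to -0.53 on infarcted arrays. The mean over 4 of 9 mesothelial and epicardial probes ran from 1.17 to 1.95 and from 1.01 to 1.62. Of the tested probes of these lists, 5 of 8 lymphatic and 3 of 6 mesothelial probes had a positive change, with medians of 0.04 and 0.01. The part of these cells in the Pdpn value was not tested.

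Ddr2 encodes a receptor tyrosine kinase that is activated by fibrillar collagen. The probe numbered 27153 read 0.80, 1.02, 1.10 and 0.91 on sham arrays and 1.26, 1.25, 1.38 and 1.34 on infarcted arrays. All 4 infarcted arrays lay above all 4 sham arrays, the only marker probe whose groups were apart. Among all tested probes, groups were apart with the infarcted arrays higher in 2.79%. The difference was small but tight, 0.35 ± 0.19 (SE; 1.27-fold), because the spread within groups was 0.13 in sham and 0.06 in infarcted hearts (SD, n = 4 each). Only 0.292% of tested probes had a smaller residual SD. The moderated test, which draws such a spread toward that of other probes, did not pass it (limma adjusted p = 0.519). The exact permutation p was 0.0286, the smallest this design can give. Probe 4781 of the same gene read 0.26, 0.64, 0.16 and 0.31 on sham arrays and 1.02, 1.13, 1.23 and 0.02 on infarcted arrays. Here infarcted 4 had the lowest value of all 8 arrays, and the other infarcted arrays lay above all sham arrays. Its change was 0.51 ± 0.30 (SE, limma adjusted p = 0.539; exact permutation p = 0.143), and 0.78 without infarcted replicate 4. The mean of the gene's probes gave 0.43 ± 0.22 (limma adjusted p = 0.477). With the recovered signals scaled to the array median in place of the block median, an alternative chosen after the data were seen, probe 27153 stood at 0.14 and probe 4781 at 0.63. The third Ddr2 probe, 32753, had no value on any array, as had 18.3% of all spots and 129 of the 700 spots in its block.

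Dpt encodes dermatopontin, a small matrix protein that binds decorin and collagen. Its probe read 4.10, 3.62, 3.86 and 2.81 on sham arrays and 3.86, 3.72, 4.22 and 4.20 on infarcted arrays. The groups overlapped, with sham control 4 well below the rest. The change was 0.40 ± 0.30 (SE; limma adjusted p = 0.65), and 0.14 without sham control replicate 4. It was 0.02 without sham control 2 and 4 together, and 0.18 with the effect of spot position removed, both chosen after the data were seen. Vim encodes vimentin, the intermediate filament of mesenchymal cells, which endothelial cells and leukocytes also contain. It read 4.13, 4.48, 4.66 and 4.56 on sham arrays and 4.30, 4.16, 4.40 and 4.07 on infarcted arrays. The change was -0.22 ± 0.21 (SE; 95% interval -0.70 to 0.25; limma adjusted p = 0.733), with overlapping groups.

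Dpt and Vim were the brightest markers, and on these arrays the change of a probe went with its signal level. The median change was -0.07 over all tested probes, -0.30 over the 1064 probes with a mean level from 3 to 4 and -0.61 over the 786 probes from 4 to 5. Against that shift the values of Vim and Dpt were high for their level. Dpt, at a mean level of 3.80, lay above the 95th percentile (0.33) of the changes of probes with levels from 3.5 to 4.0. Vim, at a mean level of 4.35, lay above the 75th percentile (-0.28) of probes with levels from 4.0 to 4.5 and below their 95th (0.15). When the arrays were scaled in ways that remove this shift, the direction of Vim turned. Vim stood at 0.39 ± 0.25 after quantile normalization and 0.39 ± 0.25 after loess against the mean array (SE; limma adjusted p = 0.642 and 0.575). Dpt stood at 0.88 ± 0.26 and 0.88 ± 0.22 (adjusted p = 0.272 and 0.136). None of these values passed. No direction is therefore given for Vim.

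**Figure D2:**
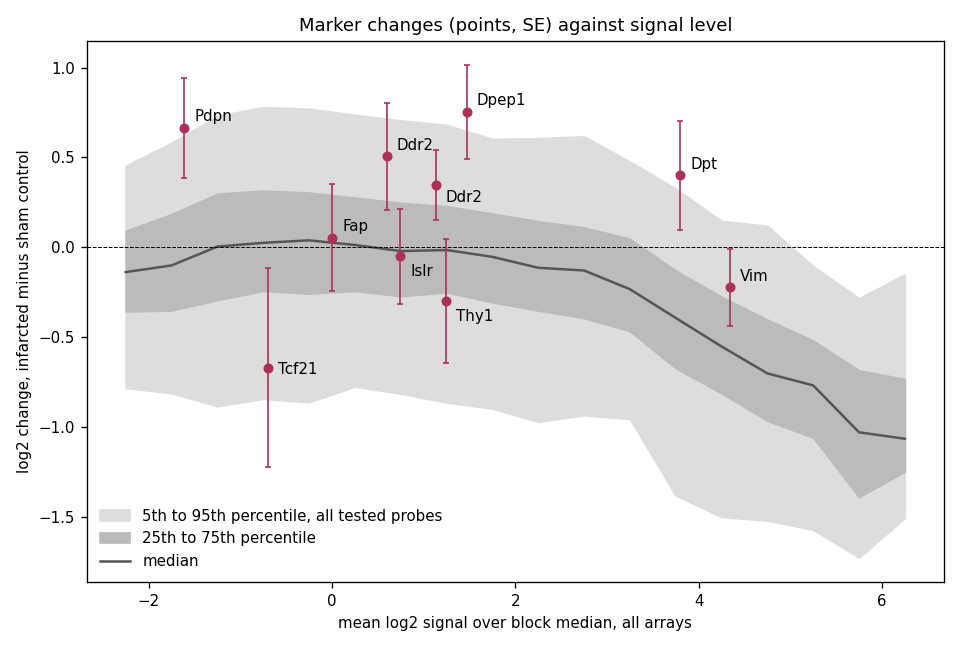
Log2 change, infarcted minus sham control (vertical axis), against the mean log2 signal relative to the block median (horizontal axis). Points are the tested fibroblast marker probes with their SE, the line is the median of all tested probes in bins of 0.5 and the grey bands are percentiles. Pdpn, Dpep1 and Dpt lie above the 95th percentile of their bins, and the median falls away at high levels.

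**Figure D3:**
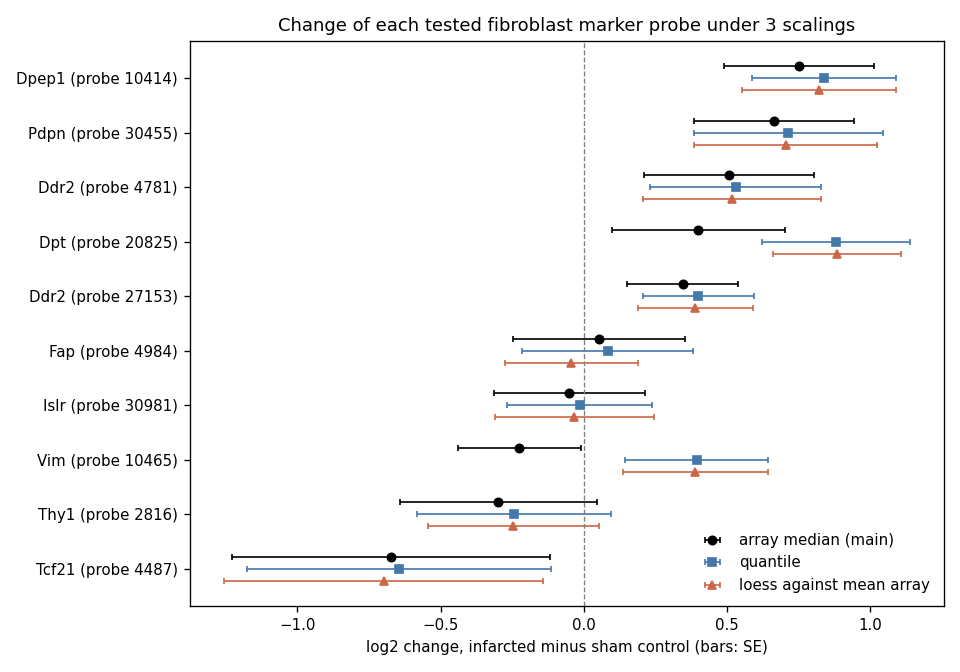
Log2 change of each tested fibroblast marker probe, infarcted minus sham control (horizontal axis), with SE bars, after centring on the array median (black), quantile normalization (blue) and loess against the mean array (orange). Vim changes sign between scalings, Dpt moves from 0.40 to 0.88, and Dpep1, Pdpn and both Ddr2 probes stay positive.

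The identity markers Tcf21, Thy1 and Islr did not differ beyond their spread. Tcf21, the helix-loop-helix factor of the fibroblast lineage, read 0.08, -0.50, -0.91 and -0.12 on sham arrays and -0.42, -0.84, -2.88 and 0.00 on infarcted arrays. The low value of infarcted 3 set the difference. It was the dimmest reading of the probe, with a recovered scanner signal of 117 in a range up to 738, near the lowest signal of Pdpn (110). The change was -0.67 ± 0.55 (SE; limma adjusted p = 0.684), and -0.06 without infarcted replicate 3. The residual SD of Tcf21 exceeded that of 93.5% of tested probes, so an interval from -1.91 to 0.56 is all that these arrays gave. Thy1, a glycolipid-anchored surface glycoprotein also found on T cells and neurons, read 2.02, 0.49, 1.80 and 1.28 on sham arrays and 1.34, 0.96, 0.72 and 1.38 on infarcted arrays. The infarcted values lay inside the sham range. The change was -0.30 ± 0.34 (SE; limma adjusted p = 0.79), and it ran from -0.60 without sham control replicate 2 to -0.09 without sham control replicate 1. Sham control 2 also had the lowest mean over 5 lymphocyte probes (-1.57, against -0.61 to -0.14 on the other sham arrays) and over 7 Schwann and neuronal probes (-0.44, against -0.05 to 0.99). It was likewise the lowest sham array for the cardiomyocyte and mesothelial means, and the highest for the endothelial and macrophage means. On the infarcted arrays, in replicate order, the lymphocyte means were -0.787, -1.087, -0.523 and -0.245. The Schwann and neuronal means were 0.129, -0.388, 0.272 and 0.223, highest on infarcted 3, where Thy1 was lowest of the infarcted arrays. The part of lymphocytes, Schwann cells and neurons in the spread of Thy1 was not tested. Islr, a secreted leucine-rich repeat protein of stromal cells, read 0.45, 1.22, 1.01 and 0.41 on sham arrays and 0.41, 0.98, 0.59 and 0.92 on infarcted arrays. Its change was -0.05 ± 0.26 (SE; 95% interval -0.64 to 0.54; limma adjusted p = 0.964).

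Of the activation markers, Fap and Meox1 gave the least information. Fap, a surface serine protease of activated fibroblasts, had no value on sham control 1. It read -0.19, 0.53 and -0.42 on the other sham arrays and 0.21, -0.33, 0.03 and 0.20 on the infarcted arrays. The groups overlapped fully, and the change of 0.05 ± 0.30 (SE, n = 3 and 4; 95% interval -0.62 to 0.73; limma adjusted p = 0.966) had no stable sign across alternatives. Meox1, a homeobox factor known to be induced in stressed fibroblasts, was not tested. It had values of 1.63, 1.64 and 0.95 on sham control 1, 3 and 4, and a value of 1.63 on infarcted 1 alone. Its recovered signals ran from 935 to 1509, far from the lowest (42) and highest (65466) signals on any array. A pattern of 3 or 4 sham values with at most 1 infarcted value was seen in 1.21% of all spots, and the opposite pattern in 1.13%. Missing values had no recorded reason, so they do not show a lower Meox1 level in infarcted hearts.

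Among the infarcted hearts the markers did not share an order. Infarcted 3 had the highest value for 5 of the 10 tested probes (both Ddr2 probes, Vim, Dpt and Dpep1) and the lowest for Tcf21 and Thy1. Infarcted 2 was lowest for 5 (Ddr2 probe 27153, Fap, Dpt, Pdpn and Dpep1). Among the sham hearts, sham control 2 was highest for 4 (Ddr2 probe 4781, Pdpn, Islr and Dpep1) and sham control 4 lowest for 4 (Fap, Dpt, Pdpn and Islr). Those 2 sham arrays had the fewest spots with a value of all 8, 21119 and 19704.

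The wider fibroblast programme was read from 3 lists that left out the 10 markers, with every probe counted. For 0 probes of these lists was the limma adjusted p under 0.05. The list of other activation and myofibroblast genes had 33 tested probes, 19 positive and 14 negative. Its median change was 0.25, against -0.07 over all tested probes. After quantile normalization 21 were positive, with a median of 0.38 against 0.01 over all tested probes. Without that normalization, 11 probes of the list had an unadjusted limma p under 0.05, 6 higher and 5 lower, against 12.5% of all tested probes. Its smallest p-values were those of Lox, which cross-links collagen, Aspn, a small matrix proteoglycan, Runx1, a transcription factor, and Postn, a matrix protein of activated fibroblasts. Postn read -0.63, 0.00, 1.31 and 1.08 on sham arrays and 1.60, 1.20, 2.94 and 3.06 on infarcted arrays, a change of 1.76 ± 0.54 (SE, limma adjusted p = 0.197). Lox read -0.45, -1.38, -0.97 and -0.36 on sham arrays and 0.02, 0.22, 1.11 and 1.57 on infarcted arrays, a change of 1.52 ± 0.39 (SE, limma adjusted p = 0.118). Aspn stood at 1.30 ± 0.35 and Runx1 at 0.87 ± 0.25 (SE, limma adjusted p = 0.135 and 0.178), the latter with 3 sham values. The remaining higher probes with an unadjusted p under 0.05 were those of Comp at 1.29 and Cthrc1 at 0.90 (limma adjusted p = 0.272 and 0.236). The list did not point 1 way. The 5 lower probes, named here after their values were seen, belonged to Col5a1, Col3a1 and Acta2. They do not stand for all matrix and contractile genes of the list, where Fn1 stood at 0.59 and Tagln at -0.25 (limma adjusted p = 0.703 and 0.908). Col5a1, a fibril-forming collagen, stood at -0.62, -0.85 and -0.94 on 3 probes (limma adjusted p = 0.279, 0.227 and 0.357). Its other tested probes stood at 0.26 and -0.53 (limma adjusted p = 0.897 and 0.447). Col3a1, another fibrillar collagen, stood at -0.61 (adjusted p = 0.284), and at -0.12 after loess. Acta2, the smooth muscle actin of myofibroblasts, stood at -0.73 (adjusted p = 0.361), and at -0.42 after loess. Col1a1, the main collagen of scar and also named after its value was seen, stood at -1.27 (limma adjusted p = 0.457), and at -1.03 after loess. Its unadjusted limma p was above 0.05. Col1a2 stood at -0.19 (limma adjusted p = 0.834), and at 0.15 after loess. Bgn, also named after its value was seen, stood at 0.14 (limma adjusted p = 0.855), and at 0.81 after loess.

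The list of other identity genes had 37 tested probes, 21 positive and 16 negative, with a median of 0.07. After quantile normalization 25 were positive, with a median of 0.20. Without that normalization, unadjusted limma p-values under 0.05 numbered 5, near the 12.5% of all tested probes. The smallest p-values of the list went both ways. Efemp1, a fibulin, stood at 0.71 ± 0.20 on 1 probe and 0.46 ± 0.24 on the other (SE, limma adjusted p = 0.16 and 0.491). Medag stood at 0.61 ± 0.27 (adjusted p = 0.388). Col15a1, a collagen next to basement membranes, stood at -1.17 ± 0.34 and -1.26 ± 0.56 on its probes (SE, limma adjusted p = 0.17 and 0.397). Gsn, the actin-severing protein gelsolin, stood at -1.10 ± 0.24 (n = 3 sham and 4 infarcted values, limma adjusted p = 0.0886) at a level of 6.53 in sham hearts, and at -0.12 after quantile normalization. Dcn, named after its value was seen, stood at 0.16 (limma adjusted p = 0.892) at a mean level of 5.28, and at 0.99 after loess. The list of upstream signalling had 31 tested probes, 16 positive and 15 negative, with a median of 0.02. After quantile normalization 16 were positive, with a median of 0.01. Without that normalization, 1 probe had an unadjusted limma p under 0.05. That probe belonged to Tead1, a factor that acts with YAP, at 0.93 ± 0.30 (SE, 3 sham and 4 infarcted values, limma adjusted p = 0.239), and its other probe stood at 0.64 ± 0.48. The next were Tgfb3 at 0.62 ± 0.29, Mrtfb at 0.64 ± 0.32, 0.54 ± 0.31 and 0.12 ± 0.31 on its probes, and the receptor Pdgfrb at -0.44 ± 0.23, and none passed.

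**Figure D4:**
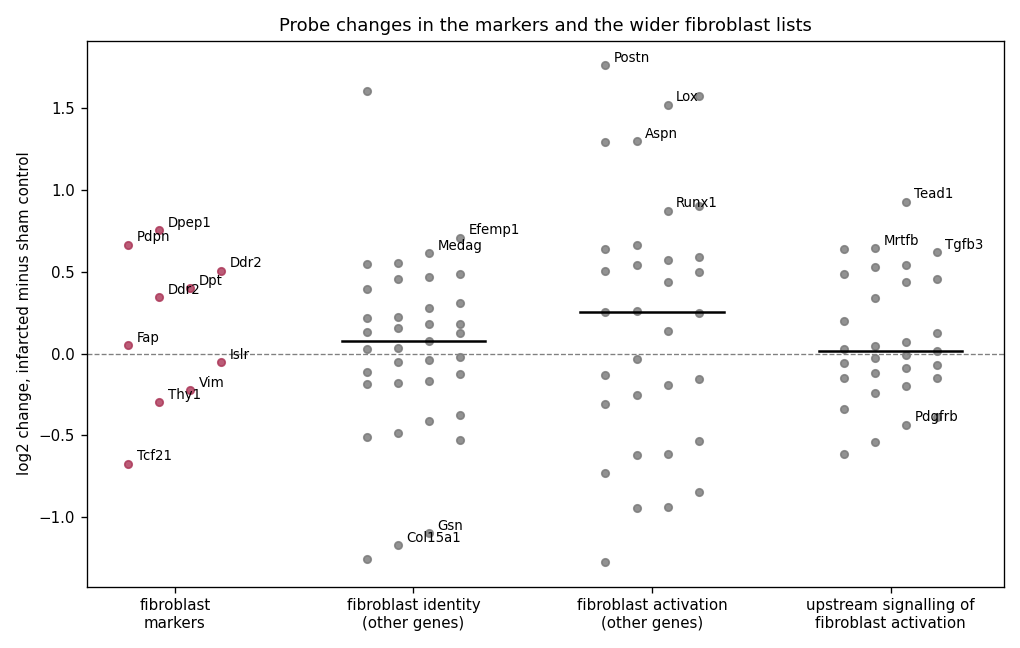
Log2 change of single probes, infarcted minus sham control (vertical axis), for the tested fibroblast marker probes (red) and for 3 lists of other fibroblast genes (grey, with the list's median as a black line). Gene names mark the markers and the genes with the smallest p in each list. No probe shown passed the adjusted threshold, and the medians of the grey lists are 0.07, 0.25 and 0.02.

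Marker lists of the other heart cells were set beside these values. The mean over the 13 of 15 macrophage probes with a value on all 8 arrays ran from 0.10 to 0.54 on sham and from 0.90 to 1.46 on infarcted arrays, so the groups were apart, and it was highest on infarcted 3. Of these probes 12 had a positive change and 0 passed singly (limma), with 7 at an unadjusted p under 0.05, against 12.5% of all tested probes. The changes of Dpep1, Pdpn and Ddr2 were positive too, and the part of macrophages in their values was not tested. Endothelial probes (14) ran from 1.68 to 2.34 and from 1.60 to 2.16, and mural probes (12) from 1.45 to 1.79 and from 1.34 to 1.84. Cardiomyocyte probes (7 of 20) ran from 4.0 to 5.08 on sham and from 4.65 to 4.82 on infarcted arrays, the lowest being sham control 2. The 12 tested cardiomyocyte probes came from 6 of the 13 genes of that list on the array. Of these probes 7 were positive with a median change of 0.14, and after quantile normalization 11 were positive with a median of 0.65. An unadjusted limma p under 0.05 was seen for 5, of which 2 were higher and 3 lower. With the mean over the probes of a gene, 3 genes were positive and the median was -0.15, so the sign depended on how probes were counted.

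**Figure D5:**
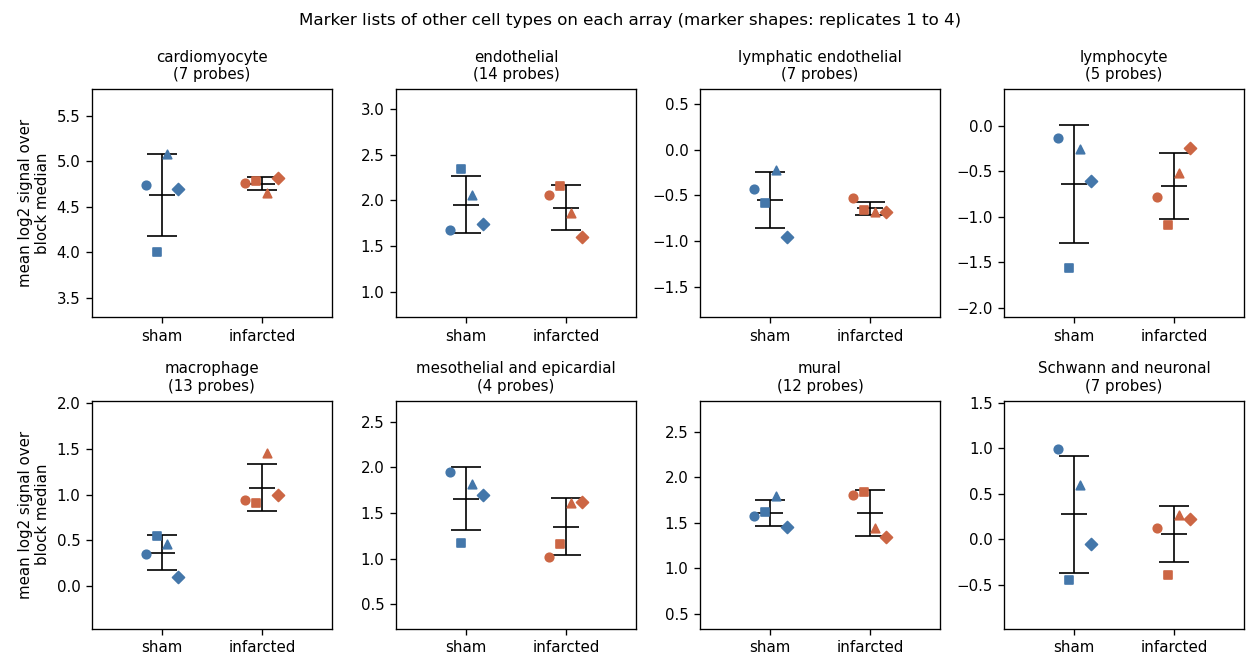
Mean log2 signal relative to the block median over the probes of each marker list that had a value on all 8 arrays (vertical axes), per array, in sham control (blue) and infarcted (orange) hearts. Marker shapes stand for replicates 1 to 4, and bars for the mean and SD. The groups are apart for macrophages and overlap for the other lists.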

How the data were processed

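The authors deposited log2 values for 33600 spots on 8 arrays. No source used here names the scanner software, background correction or flags. Within each of 48 blocks of 700 spots on each array, 2 to the power of the value became a whole number (tolerance 0.001, wider in proportion for bright spots) when multiplied by the block's median signal, so a single channel scaled to the block median is read from them. Arrays were centred on their median. The fit took the 20561 probes with at least 3 values per group and used limma 3.58.1 (lmFit, eBayes; R 4.3.3), with Benjamini-Hochberg adjustment over all of them and a threshold of 0.05. The fit was tested on simulated data with changes larger than those of the markers, so its power at their size was not tested. The 4 sham control and 4 infarcted arrays are separate hearts per the labels, and their number limits the precision. Of the probes 18179 had 1 symbol, 87 several and 15334 were not listed. Named beyond the 10 markers were, from each of 3 fibroblast lists, genes past the threshold and the 4 with the smallest p. Further genes of the activation and identity lists were named after their values were seen. The markers and lists were chosen with earlier results of these data known. Replicate numbers were not read as pairs of arrays. Exact permutation tests used all assignments of the arrays. Alternatives were quantile, loess (span 0.4) or no scaling, filters on missing values, gene means, array weights, a trended prior, a block and leaving out arrays. Removing spot position, scaling to the array median and leaving out 2 sham arrays were chosen after the data were seen.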

Additional observations from a re-analysis of the deposited data

Results flagged for a closer look

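Dpep1 on sham control 2 stood apart from the other sham arrays. Its value was 1.69, and the nearest other sham value was 0.95. The gap made up 0.895 of the range of the 4 values, above the critical value of Dixon's test. It was the only 1 of 19 sets of 4 values of the marker probes that passed, and chance passes about 1 in 20. The same array gave the highest sham values of Pdpn, Islr and Ddr2 probe 4781.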

How the results depend on the processing

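No fibroblast marker probe passed under any alternative, and the smallest adjusted p was 0.0761 (Dpep1, leaving out sham control 2 and 4, which had the fewest values). Dpep1, Pdpn, Dpt and both Ddr2 probes stayed positive, and Tcf21 and Thy1 stayed negative, under all 20 alternatives, although Dpt came down to 0.02 when sham control 2 and 4 were left out together and to 0.18 without the effect of spot position. These probes had a value on every array. Their change was therefore the same by construction under the missing-value filters, the replicate block and the trended prior, and it was the same without centring. Such alternatives could not turn a sign. Vim turned to 0.39 with quantile normalization and 0.39 with loess. Fap turned to -0.044 with loess, -0.0081 with the replicate block and -0.18 with array weights. It ran from -0.0081 to 0.17 with single arrays left out, and stood at 0.43 without the effect of spot position and 0.24 with scaling to the array median. Islr ran from -0.17 to 0.10 with single arrays left out. The number of all probes past the threshold, 157, was 35 with quantile normalization, 98 with loess, 411 with array weights, 99 for gene means, 40 without the effect of spot position, 50 with scaling to the array median and 1209 when sham control 2 and 4 were left out together. It ran from 3 without infarcted replicate 3 to 690 without sham control replicate 4. The causes were not tested. With the replicate number as a block it was 1. Deviations of same-numbered arrays correlated at 0.04, 0.31, -0.09 and -0.20, and 2 of 8 arrays correlated best with their own number, so the numbers were not read as pairs. Differently numbered arrays ran from -0.20 to 0.33, the highest being sham control 3 with infarcted 4. These correlations cannot show how the arrays were handled. Missing values limit Meox1 and Fap, and Pdpn is limited by its dim signal, as is the value of Tcf21 on infarcted 3.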
